A study of Mus musculus with 6 samples.

Results

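The genes described here are 44 mouse genes of DNA repair and of the checkpoints that watch over it, listed by name. All 44 were found among the 55401 genes of the count tables and all 44 passed the filter on low counts, so they are 44 of the 14269 genes tested. The libraries come from RAW264.7, macrophage-like cells of the mouse first grown from the ascites of a tumour caused by Abelson virus, which are labelled wild type in both groups. Poly(A) RNA was sequenced from 3 libraries titled as control siRNA and 3 titled as Nop16 siRNA. An siRNA is a short duplex RNA that leads to cleavage of the matching mRNA, and Nop16 encodes a nucleolar protein that the series title calls a histone mimetic acting on H3K27 methylation. All 6 samples carry the same treatment text, a lipid transfection with Nop16 siRNA at 20 nM for 3 days, while the treatment tag reads "no" for all 6. What the control cells received is thus known only from the titles.

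Cells mend a double-strand break in DNA either by homologous recombination, which copies the sister chromatid and needs Brca1 and Brca2, or by end joining, in which the Ku heterodimer holds the ends for ligation. The Fanconi anaemia proteins undo crosslinks between strands, mismatch repair corrects copying errors, and the ATM and ATR kinases signal damage and stalled forks to the effector kinases Chek2 and Chek1. Many recombination and checkpoint genes are transcribed most in S and G2 phase, whereas the Ku genes are expressed through the whole cycle.

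The library totals were 19778237 to 23061922 counted fragments in controls and 15601477 to 18635089 after Nop16 siRNA. Every Nop16 siRNA library was thus shallower than every control library. The floor of 3 counts corresponded to 0.13 to 0.192 CPM, the usual unit of counts scaled to the library total. Nop16 itself had 388, 437 and 402 counts in the control libraries and 61, 72 and 84 in the Nop16 siRNA libraries, which is 22.4% of control (95% interval 19 to 26.4%, edgeR adjusted p = 2.94e-23). The macrophage markers were above 1 CPM for 8 of 8, and their summed level was 4780 to 5030 CPM in controls and 7790 to 8200 CPM after Nop16 siRNA. Lyz2 alone went from a mean of 1140 to 2930 CPM (edgeR adjusted p = 0.000979). Csf1r (1430 to 1820 CPM), Cd68 (807 to 1030), Itgam (760 to 1080) and Cd14 (683 to 1110) rose too, each with an adjusted p of at most 4.62e-17. Fcgr1 fell from 50.3 to 39.2 CPM (adjusted p = 7.54e-07). Adgre1 (7.81 and 7.86 CPM) and Mrc1 (1.21 and 1.51 CPM) were not called. The marker lists of B cells, T cells and epithelial cells each summed to at most 0.38 CPM in every library, and those of fibroblasts and neutrophils to at most 1.72 CPM. Pax5, Krt8, Krt18, Col1a2, Dcn and S100a9 were at 0 throughout. Of the fibroblast list Pdgfra had means of 1.28 and 1.25 CPM, and of the neutrophil list S100a8 had 1.36 and 0.884 CPM. These levels were near that of Mrc1, and neither gene was called. The labels do not state that the replicates were separate cultures. The p-values therefore reflect the spread of these 6 samples alone, and that spread may be technical.

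After Nop16 siRNA 27 of the 44 genes fell and 2 rose, called here where the Benjamini-Hochberg adjusted p of edgeR's quasi-likelihood test over all genes was below 0.05. The 27 that fell are 61.4% of the 44, beside 22.4% of all genes tested, and the 2 that rose are 4.55%, beside 23% of all genes. The median log2 fold change of the 44 was -0.28, against 0.00 over all genes tested, and 38 of the 44 had a negative value. In 26 genes (59.1%) every Nop16 siRNA library lay below every control library, as it did for 26.2% of all genes, and in 2 genes every one lay above, as for 26.3% of all genes. When the change had to exceed 1.2-fold, 16 genes were called lower (36.4%, beside 8.78% of all genes) and 1 was called higher, Zranb3 (7.77% of all genes were). Falls were modest in size, since the largest was to 55.8% of control. In bulk RNA, fewer cells in a phase of the cycle and less RNA per cell cannot be told apart.

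**Figure D1:**
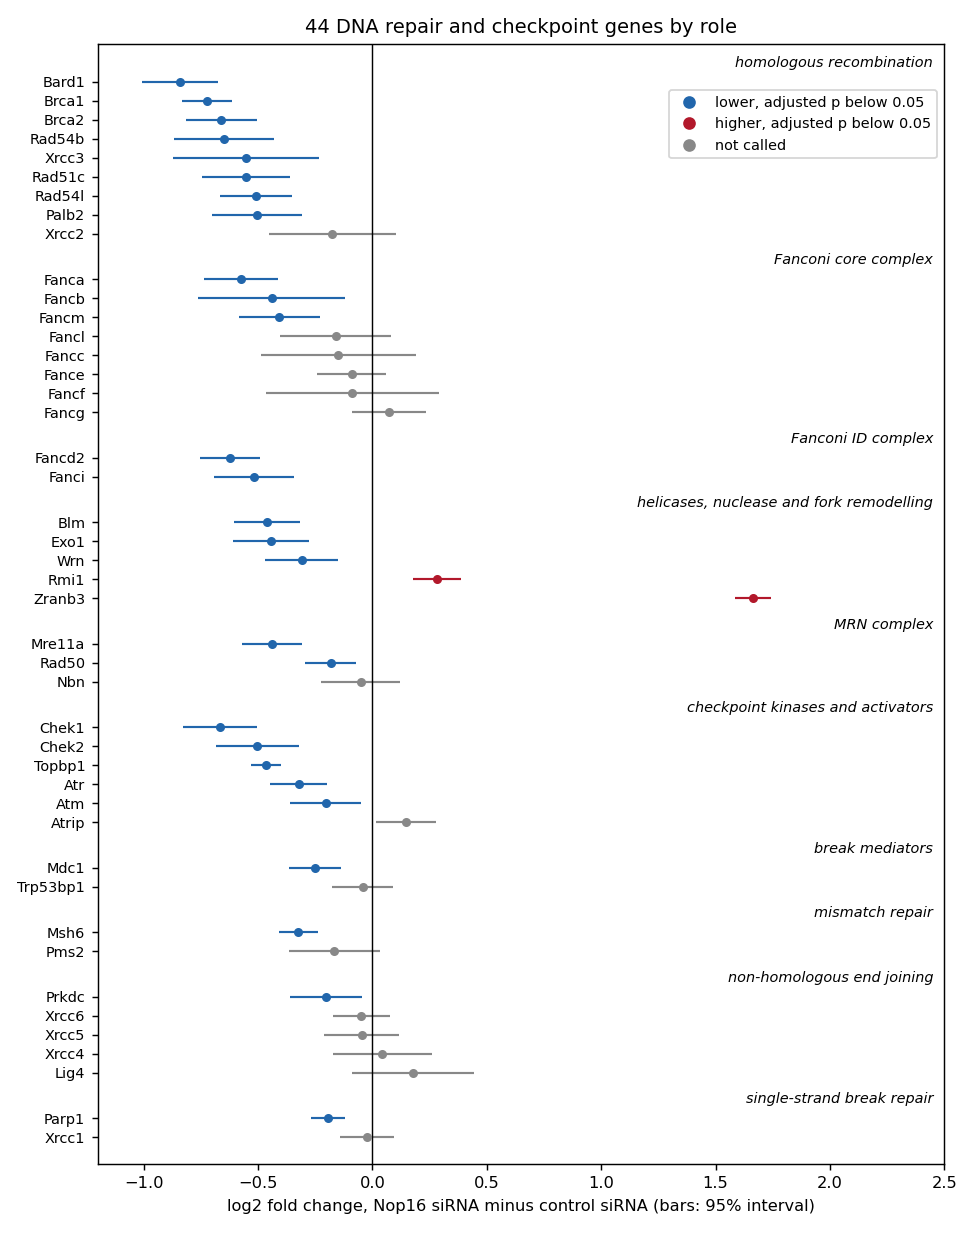
Log2 fold change (Nop16 siRNA minus control siRNA, x axis) of each of the 44 genes, grouped by role, with points for the edgeR estimate and bars for its 95% interval; 27 genes are blue (lower), 2 red (higher) and 15 grey (not called). The homologous recombination genes all lie left of 0, the end joining genes lie near 0, and Zranb3 stands alone at 1.66.

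The homologous recombination genes fell in 8 of 9 cases (88.9%, beside 22.4% of all genes), with a median log2 fold change of -0.55. Bard1 (ENSMUSG00000026196), the RING partner that stabilises Brca1 in a ubiquitin ligase, had 29.1, 31.4 and 26.7 CPM in the control libraries and 16.1, 15.1 and 17.5 CPM after Nop16 siRNA. The groups did not overlap, and the level was 55.8% of control (log2 fold change -0.84, SE 0.0846, adjusted p = 7.06e-13). Brca1 (ENSMUSG00000017146), which directs breaks towards recombination, had 67.1, 64.2 and 62.6 CPM against 39.9, 39 and 38.4 CPM. The 3 Nop16 siRNA libraries were close together and all below the controls (log2 fold change -0.72, SE 0.0554, adjusted p = 2.31e-17). Brca2, a mediator of strand exchange, had 33.1, 31.3 and 31 CPM against 18, 20.8 and 21.4 CPM, again without overlap (log2 fold change -0.66, adjusted p = 1.66e-10). Palb2, the bridge between Brca1 and Brca2, fell by 0.51 on the log2 scale.

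Among the remaining recombination genes, Rad51c and Xrcc3, which act in strand exchange, both had a log2 fold change of -0.55, and the DNA translocase Rad54l had -0.51. Rad54b, a relative of Rad54l, had -0.65, but 35.8% of its exonic length is shared on the same strand with Fsbp, so its counts are uncertain. Xrcc2, which also acts in strand exchange, was not called (log2 fold change -0.18, adjusted p = 0.327). Its 95% interval ran from 73.1 to 107% of control, although its 3 Nop16 siRNA values, 5.49, 6.91 and 6.84 CPM, all lay below the control values of 7.39, 6.93 and 7.54 CPM. In all 9 recombination genes every Nop16 siRNA library lay below every control library, as it did for 26.2% of all genes.

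**Figure D2:**
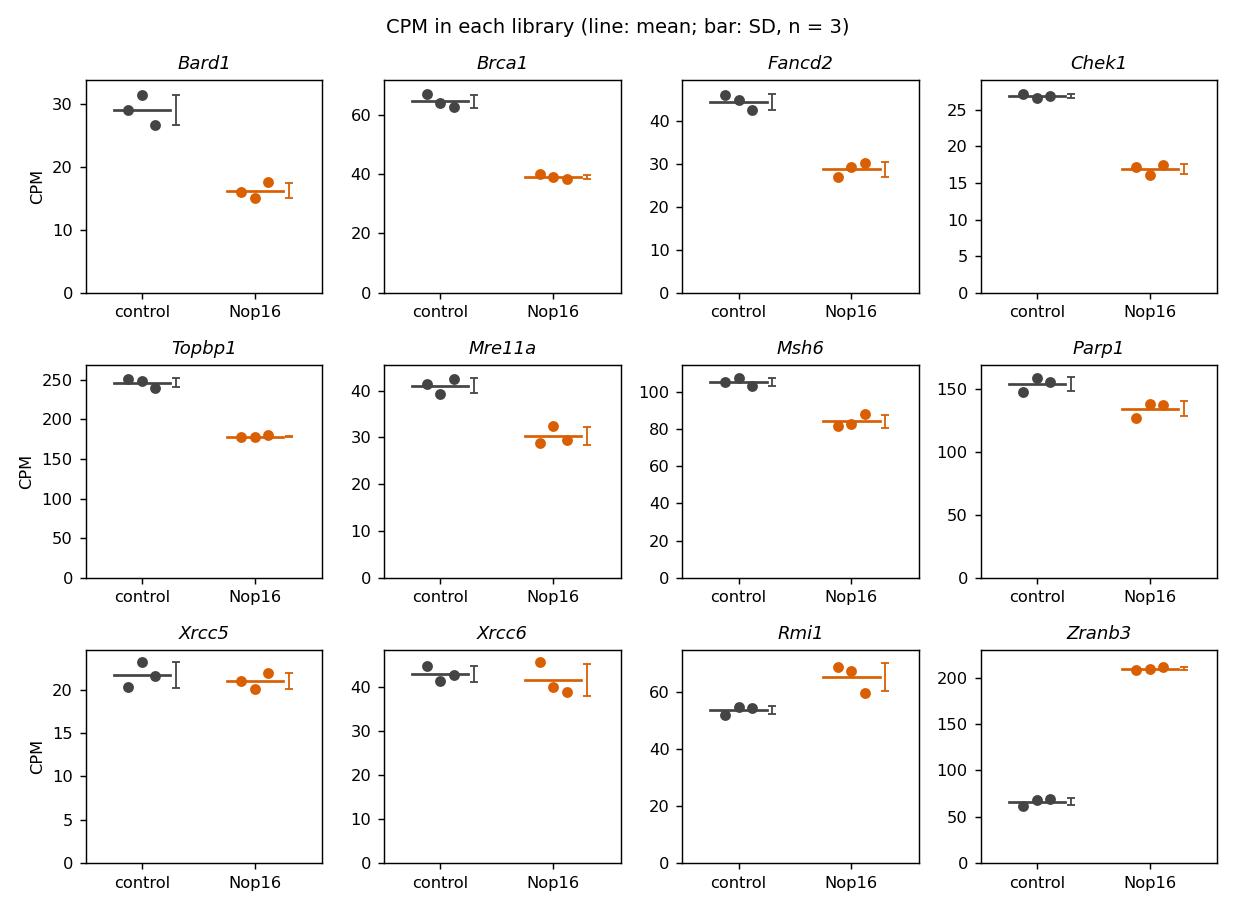
CPM (y axes, each from 0) of 12 of the genes in the 3 control and 3 Nop16 siRNA libraries; each point is a library, lines are means and bars are SD (n = 3). Bard1, Brca1, Fancd2, Chek1, Topbp1, Mre11a, Msh6 and Parp1 show no overlap and lower values after Nop16 siRNA, Xrcc5 and Xrcc6 overlap, and Rmi1 and Zranb3 lie higher without overlap.

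The Fanconi anaemia genes are given here by complex, and the difference between the complexes was not tested. Both genes of the ID complex, the ubiquitinated pair that marks a crosslink, fell. Fancd2 had 46.1, 45 and 42.5 CPM in controls and 26.9, 29.4 and 30.2 CPM after Nop16 siRNA. The groups did not overlap (log2 fold change -0.62, SE 0.0665, adjusted p = 5.07e-12). Its partner Fanci had 19.3, 22.8 and 21.3 CPM against 14.5, 15.1 and 14.7 CPM, also without overlap (log2 fold change -0.52). Of the 8 genes of the core complex, the ubiquitin ligase that modifies this pair, 3 fell and the median was -0.16. The share that fell was 37.5%, beside 22.4% of all genes. Fanca, a scaffold subunit, had 27.7, 26.8 and 29 CPM against 17.2, 20.7 and 18 CPM, with no overlap (log2 fold change -0.58, adjusted p = 2.9e-08). Fancm, the translocase that anchors the complex to DNA, had a log2 fold change of -0.41 (adjusted p = 0.000134).

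Fancb was the least secure of the 3 core genes called. It had 5.01, 7.36 and 6.33 CPM in controls and 4.26, 5.24 and 4.29 CPM after Nop16 siRNA, so the groups overlapped (log2 fold change -0.44, adjusted p = 0.0236). Without control library 2 its value was -0.30 (adjusted p = 0.208), and DESeq2 gave an adjusted p of 0.0665. The call was also lost without control library 3 (0.0582) and without Nop16 siRNA library 1 (0.0802) or 3 (0.0909). Fancl, the catalytic subunit, had a log2 fold change of -0.16, and Fancc, Fance, Fancf and Fancg had -0.15, -0.09, -0.09 and 0.07. None of these 5 was called by edgeR, also not at an unadjusted p below 0.05 or with DESeq2. The precision differed between them: the 95% interval was 84.6 to 104% of control for Fance and 72.3 to 122% for Fancf, the lower of the pair in counts.

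The helicases, the nuclease and the fork remodelling enzyme are 5 genes. They held the only 2 of the 44 that rose (40%, beside 23% of all genes). The other 3 fell (60%, beside 22.4% of all genes). Zranb3 (ENSMUSG00000036086), an annealing helicase and endonuclease that remodels stalled replication forks, had 61.9, 68.4 and 68.6 CPM in controls and 209, 209 and 212 CPM after Nop16 siRNA. The raw counts behind these were 1358, 1590 and 1365 against 3233, 3634 and 3899. Every Nop16 siRNA library was far above every control, and the SD of 1.55 CPM among them was small. Zranb3 rose 3.17-fold (95% interval 300 to 334% of control, log2 fold change 1.66, SE 0.0399, adjusted p = 6.1e-41), and 54 of the 14269 genes tested had a larger log2 fold change. On the scale of CPM per kilobase of exon (RPKM), its level went from 7.30 ± 0.419 to 23.1 ± 0.171 (SD, n = 3). That moved it from rank 12 to rank 2 of the 44.

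Rmi1, which holds the Blm helicase and topoisomerase III alpha together in the complex that dissolves double Holliday junctions, had 51.8, 54.5 and 54.3 CPM in controls. After Nop16 siRNA it had 68.7, 67.4 and 59.6 CPM, with no overlap but with the third library nearer to the controls. It rose 1.22-fold (log2 fold change 0.28, SE 0.054, adjusted p = 1.31e-05), and it was not among the genes called at a minimum change of 1.2-fold. Blm itself had 33.1, 37.1 and 34.9 CPM against 24.2, 27.1 and 25 CPM, without overlap and in the opposite direction (log2 fold change -0.46, adjusted p = 3.13e-07). Exo1, the nuclease that resects breaks and mismatched strands, had a log2 fold change of -0.44, and the helicase Wrn had -0.31.

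The MRN complex, the first sensor at a break, has the nuclease Mre11a, the clamp Rad50 and the ATM adaptor Nbn. Mre11a had 41.3, 39.4 and 42.5 CPM in controls and 28.9, 32.4 and 29.4 CPM after Nop16 siRNA. The groups did not overlap (log2 fold change -0.44, SE 0.0673, adjusted p = 1.43e-07). Rad50 had 58, 58 and 51.8 CPM against 47.8, 52.6 and 47.7 CPM, where the second Nop16 siRNA library exceeded the third control. Its fall was small (log2 fold change -0.18, adjusted p = 0.00676) and was not called without control library 2 (adjusted p = 0.0533). Nbn was not called, with an interval of 85.6 to 109% of control.

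Among the 6 checkpoint genes 5 fell (83.3%, beside 22.4% of all genes). Chek1, the effector kinase downstream of ATR, had 27.2, 26.6 and 26.9 CPM in controls and 17.2, 16.1 and 17.5 CPM after Nop16 siRNA. Both groups were tight and did not overlap (log2 fold change -0.67, SE 0.0818, adjusted p = 4.19e-10). Chek2, its counterpart downstream of ATM, had 20.2, 19.5 and 18.1 CPM against 14.7, 14 and 12.3 CPM, without overlap (log2 fold change -0.50). Topbp1, the scaffold that activates ATR at stalled forks, had the highest counts of the 44 genes in the control libraries, with 251, 248 and 240 CPM. It had 177, 178 and 180 CPM after Nop16 siRNA, a fall to 72.4% of control with a 95% interval of 69.2 to 75.7% (adjusted p = 1.29e-18).

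The apical kinases moved less. Atr had 46.2, 53.7 and 50.7 CPM against 36.2, 43.7 and 40.3 CPM, without overlap (log2 fold change -0.32, adjusted p = 2.92e-05). Atm had 27, 28.6 and 26.3 CPM against 22.2, 26.4 and 22.4 CPM, where the second Nop16 siRNA library passed the lowest control (log2 fold change -0.21, adjusted p = 0.0291). The call for Atm was lost with DESeq2 (adjusted p = 0.0661), with the trend over gene length removed (0.0642), and without control library 2 (0.119) or Nop16 siRNA library 1 (0.141) or 3 (0.138). Atrip, the partner that brings ATR to coated single-stranded DNA, had 34.7, 32.8 and 39.3 CPM against 37.9, 39.8 and 40.2 CPM. These overlapped and were not called (log2 fold change 0.15, adjusted p = 0.0707), but they were called higher without control library 3 (adjusted p = 0.0133) and with the length trend removed (0.0409). Atrip shares 16% of its exonic length on the same strand with Trex1, so its counts are uncertain.

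Of the break mediators, Mdc1, the scaffold that binds phosphorylated histone H2AX, had 57.8, 58.6 and 51.4 CPM against 48.5, 49.2 and 43.6 CPM. It fell by 0.25 on the log2 scale (adjusted p = 0.000286), without overlap. Trp53bp1, which favours end joining over resection, was not called and had a 95% interval of 88.5 to 106% of control. In mismatch repair, Msh6, which recognises base mismatches, had 106, 108 and 103 CPM in controls and 81.6, 83 and 88 CPM after Nop16 siRNA. It fell to 79.8% of control with no overlap (adjusted p = 4.36e-09). Pms2, the nuclease subunit, was not called (log2 fold change -0.17, adjusted p = 0.179).

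In non-homologous end joining 1 of 5 genes fell (20%, near the 22.4% of all genes tested), and the median log2 fold change was -0.05. Xrcc5 and Xrcc6 encode the Ku heterodimer. Xrcc5 had 20.3, 23.2 and 21.5 CPM against 20.9, 20.1 and 21.9 CPM, and Xrcc6 had 44.8, 41.3 and 42.6 CPM against 45.7, 40.1 and 38.9 CPM. Both overlapped, with intervals of 86.4 to 108% of control for Xrcc5 and 88.8 to 105% for Xrcc6, so a fall of the size seen in Brca1 lay outside them. The interval of Xrcc5 still held a fall as small as that called for Parp1 (87.4% of control). Prkdc, the kinase that Ku recruits, had 25.4, 25.3 and 26.7 CPM against 20.4, 22.5 and 24.1 CPM. Its groups did not overlap, but the call was marginal (log2 fold change -0.20, adjusted p = 0.032). It was lost with DESeq2 (adjusted p = 0.0665), at equal depth (0.113), with the length trend removed (0.0935), and without control library 3 (0.0992) or Nop16 siRNA library 1 (0.19) or 2 (0.059). Lig4 and Xrcc4, the ligase and its cofactor, were not called and had intervals of 93.9 to 136% and 88.8 to 120% of control.

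Parp1, the poly(ADP-ribose) polymerase that marks nicks, had 148, 159 and 156 CPM in controls and 128, 139 and 137 CPM after Nop16 siRNA. It fell to 87.4% of control without overlap (adjusted p = 2.16e-05). Xrcc1, the scaffold it recruits, was not called (90.7 to 107% of control). Per length, Parp1 was the most abundant of the 44 in both groups, at 29.1 ± 1.08 and 25.4 ± 1.15 RPKM (SD, n = 3). Msh6 (24.3 ± 0.519) and Topbp1 (21.9 ± 0.522) followed in controls, and then a step down led to Rad50 (10.4 ± 0.672) and Xrcc6 (9.58 ± 0.401), which did not differ beyond their spread. Fancc was the lowest, at 0.578 ± 0.0503 RPKM. Brca1 went from rank 9 to rank 16.

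Many of these proteins work in pairs, so the ratio of the partners per kilobase was compared in 12 pairs by a two-sided exact permutation test. With 3 against 3 libraries its smallest p is 0.1, which no adjustment can bring below 0.05. The ratio of Blm to Rmi1 was 0.478, 0.51 and 0.481 in controls and 0.263, 0.301 and 0.314 after Nop16 siRNA. These did not overlap (log2 difference -0.74, exact p = 0.1, 0.3 after Benjamini-Hochberg adjustment over the 12 pairs). The ratio of Atr to Atrip was 0.403, 0.496 and 0.39 against 0.29, 0.332 and 0.303, and that of Mre11a to Rad50 was 0.647, 0.615 and 0.744 against 0.548, 0.559 and 0.56. Neither pair overlapped, and both had an exact p of 0.1. The ratio of Xrcc1 to Parp1 was higher without overlap, with means of 0.253 ± 0.0109 and 0.286 ± 0.0209 (SD, n = 3).

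The other 8 pairs overlapped. The ratio of Brca1 to Bard1 was 1.48 ± 0.108 in controls and 1.6 ± 0.137 after Nop16 siRNA (SD, n = 3), and that of Fancd2 to Fanci was 1.54 ± 0.168 and 1.42 ± 0.075. Both partners thus fell by amounts whose difference was within the spread of the libraries. For the Ku pair, Xrcc5 to Xrcc6, the ratios were 0.891 ± 0.0961 and 0.892 ± 0.0928. Brca2 to Palb2, Nbn to Rad50, Atm to Atr, Chek1 to Chek2 and Lig4 to Xrcc4 had log2 differences of -0.15, 0.12, 0.12, -0.17 and 0.12.

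Promoters were examined for 36 of the 44 genes that had a RefSeq window on GRCm38.p6 of 250 bases before to 50 after a start site. Windows were not used here for Xrcc2, Rad54b, Fancd2, Wrn, Exo1, Rad50, Nbn and Prkdc. The E2F words TTTCGCGC, TTTGGCGC, TTTCCCGC and TTTGCCGC, searched on both strands, are bound by E2F factors at many S-phase genes. They occurred in 10 of the 36 genes (27.8%), beside 4.85% of the 9456 tested genes with a window and 2.6% of all 27025 genes. By call they occurred in 7 of 21 that fell (33.3%), 2 of 13 not called (15.4%) and 1 of 2 that rose. Of all tested genes that fell, 8.06% held such a word. CCAAT, the word of NF-Y, occurred in 23 genes (63.9%), beside 43.3% of tested genes. The cell cycle homology region words TTTGAA and TTCGAA occurred in 3 (8.33%), beside 16.8% of tested genes. A match describes letters only.

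The windows of 3 genes that fell and hold an E2F word, and of Zranb3, the gene with the largest change, are shown here as examples. E2F words also lie in Rmi1, which rose (at 26), and in Fancg (-52) and Xrcc6 (-46), which were not called. The choice of windows is thus no comparison of genes that fell with genes that rose. Each is printed 5′ to 3′ on the gene's own strand with the matched words in capitals and the start site as position 0. In Bard1 (chr1:71102923-71103222, minus strand) the capitals mark TTTGAA at -242 and TTTCCCGC at -209. In Brca2 (chr5:150522371-150522670, plus strand) they mark GCGGGAAA, an E2F word read from the other strand, at -168. In Topbp1 (chr9:103305077-103305376, plus strand) they mark GCGCGAAA, likewise reversed, at -129. In Zranb3 (chr1:128102998-128103297, minus strand) they mark CCAAT at -180, -79 and -35 and TTTGAA at -170. The other window of Zranb3 (chr1:128102422-128102721), not printed, holds TTTGAA at -169 and -40 and no CCAAT.
Bard1: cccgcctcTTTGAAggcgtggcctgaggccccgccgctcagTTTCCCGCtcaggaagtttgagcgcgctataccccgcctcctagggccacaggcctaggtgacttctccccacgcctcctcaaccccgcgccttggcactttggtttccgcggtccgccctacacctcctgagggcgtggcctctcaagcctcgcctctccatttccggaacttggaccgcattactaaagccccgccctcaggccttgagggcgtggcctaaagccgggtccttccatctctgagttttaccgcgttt
Brca2: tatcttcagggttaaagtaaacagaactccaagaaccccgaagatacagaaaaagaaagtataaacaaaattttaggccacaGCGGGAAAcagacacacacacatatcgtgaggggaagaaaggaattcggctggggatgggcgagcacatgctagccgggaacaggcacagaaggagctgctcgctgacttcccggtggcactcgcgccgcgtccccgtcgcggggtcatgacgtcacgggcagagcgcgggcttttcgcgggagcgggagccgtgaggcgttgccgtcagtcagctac
Topbp1: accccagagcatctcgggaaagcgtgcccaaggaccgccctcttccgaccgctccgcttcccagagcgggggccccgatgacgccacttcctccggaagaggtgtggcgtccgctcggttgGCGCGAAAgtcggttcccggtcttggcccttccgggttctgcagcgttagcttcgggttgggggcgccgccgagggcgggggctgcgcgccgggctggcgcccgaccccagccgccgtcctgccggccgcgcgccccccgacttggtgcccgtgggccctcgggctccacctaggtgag
Zranb3: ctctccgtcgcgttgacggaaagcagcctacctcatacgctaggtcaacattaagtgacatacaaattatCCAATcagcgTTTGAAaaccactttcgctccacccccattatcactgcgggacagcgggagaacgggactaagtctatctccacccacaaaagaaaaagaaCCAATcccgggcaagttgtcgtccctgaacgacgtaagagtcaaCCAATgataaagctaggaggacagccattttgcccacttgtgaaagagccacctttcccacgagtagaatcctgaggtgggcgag

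The gene that starts beside Zranb3 was not called. Zranb3 lies at chr1:127954184-128103047 on the minus strand (GRCm38), and R3hdm1 starts 254 bases away on the opposite strand. R3hdm1 had 76.7, 81.4 and 83.8 CPM in controls and 75.1, 74.4 and 77.9 CPM after Nop16 siRNA. It was not called in the main test (log2 fold change -0.09, adjusted p = 0.123) and was called lower when libraries were scaled by total alone (adjusted p = 0.048). Inside Zranb3 on the same strand, the unclassified transcript Gm38248 at chr1:127978905-127984687 rose from 4.59 ± 0.804 to 14.8 ± 1.15 CPM (SD, n = 3), a log2 fold change of 1.69 close to that of its host (adjusted p = 4.21e-17). Gm38248 shares no exonic bases with Zranb3 and so lies between its exons. Whether these fragments came from a separate transcript or from unspliced Zranb3 RNA was not tested. The 10 genes tested within 500000 bases, other than Zranb3 and Gm38248, had log2 fold changes between -0.61 and 0.54. Mgat5, Rab3gap1, Ubxn4 and Cxcr4 were called higher, and Rpl28-ps1, Mcm6 and Gm6170 lower. Ccnt2, R3hdm1 and Dars were not called. Of all genes tested, 23% were called higher and 22.4% lower. These neighbours, and those below, were looked at after the values of the 44 genes were seen.

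Some of the 44 genes, in most roles, start close to a gene on the opposite strand. How many of all genes do so was not counted. In 19 of the 44 genes a protein-coding gene on the other strand started within 1000 bases, and 17 of these neighbours were tested. Of the 17 neighbours 6 rose and 2 fell, where 23% and 22.4% of all genes did. Among the tested neighbours of the genes that fell, 5 rose, 2 fell and 5 were not called. Whether the genes of a pair moved in opposite directions more often than other genes was not tested. Beside Brca1, whose start lies 194 bases from that of the autophagy receptor Nbr1, Nbr1 had 122, 125 and 119 CPM in controls and 177, 180 and 173 CPM after Nop16 siRNA. The groups did not overlap, and Nbr1 rose (log2 fold change 0.54, adjusted p = 1.78e-19) where Brca1 fell by 0.72 on the log2 scale. Dctn5 beside Palb2 had a log2 fold change of 0.43, Mospd2 beside Fancb 0.23, Pomgnt1 beside Rad54l 0.22, and Emc3, 30 bases from Fancd2, 0.12. The call for Emc3 was lost with the length trend removed (adjusted p = 0.0631).

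In 2 pairs both genes fell: Tex14 beside Rad51c and Mcm4 beside Prkdc each had a log2 fold change of -0.40. In 5 pairs the repair gene fell and the neighbour was not called. Lig4 was not called while Abhd13, 21 bases away, had a log2 fold change of 0.16 (adjusted p = 0.0322), a call lost with DESeq2 (0.0665), with no filter (0.0681), under other settings, and without control library 1 (0.139) or Nop16 siRNA library 2 (0.13) or 3 (0.104). Fragments were counted by strand, per the file headers, so reads of the 2 genes of a pair are told apart.

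**Figure D3:**
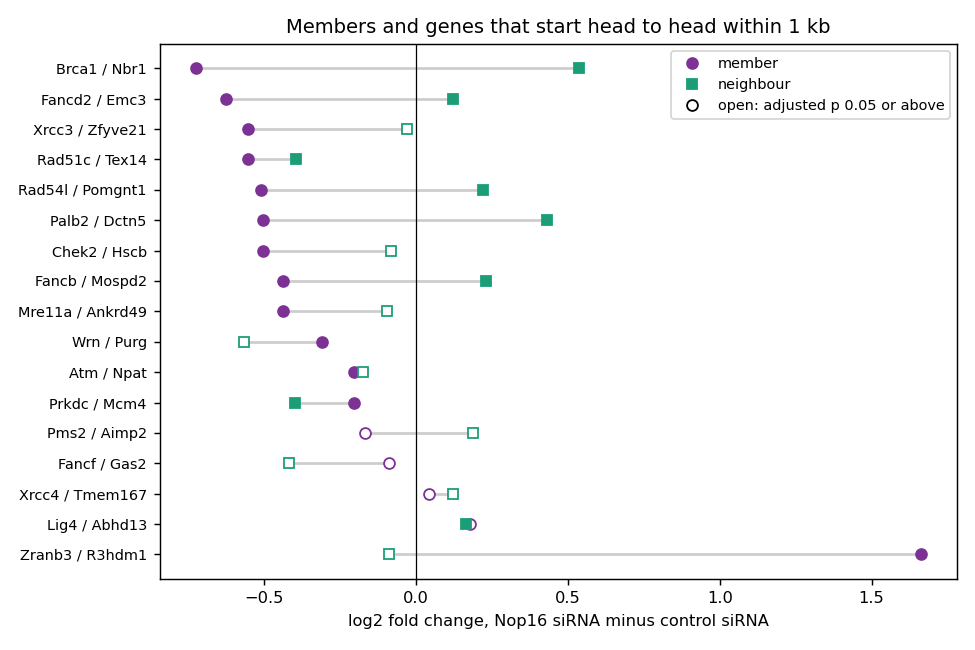
Log2 fold change (Nop16 siRNA minus control siRNA, x axis) of 17 of the 44 genes (circles) and of the tested gene that starts within 1000 bases on the opposite strand (squares), joined by a line; open symbols have an adjusted p of 0.05 or above. Brca1 and Nbr1 lie at -0.72 and 0.54, and Zranb3 lies at 1.66 while R3hdm1 lies near 0.

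Repair genes outside the 44 were read from lists of 133 symbols, of which 132 were found and 131 tested. Of these, 56 fell (42.7%) and 12 rose (9.16%), beside 22.4% and 23% of all genes. The median log2 fold change of the 131 was -0.16. Among other recombination genes 11 of 22 fell, led by Rad51b (-0.88), Rad51ap1 (-0.81) and Brip1 (-0.61), and 2 rose, Mcm9 and Zswim7, whose calls DESeq2 did not make (adjusted p = 0.0564 and 0.0611). Mcm9 was also not called without control library 1 (0.0894) or 3 (0.0936) or Nop16 siRNA library 2 (0.167), nor Zswim7 without control library 1 (0.0507) or 2 (0.13) or Nop16 siRNA library 1 (0.119) or 2 (0.073). Among other Fanconi and crosslink genes 6 of 15 fell, led by the E2 enzyme Ube2t (-1.04) and the nucleases Eme1 (-0.74) and Gen1 (-0.37). The nuclease subunit Mus81 was the 1 that rose (0.19, adjusted p = 0.0462), a call lost under 11 of the 17 alternatives, among them DESeq2 (0.0959), limma-voom (0.0557) and scaling by total alone (0.0827), and without control library 2 (0.14) or 3 (0.0808) or Nop16 siRNA library 1 (0.176) or 3 (0.24). Among other checkpoint genes 12 of 21 fell, and the 3 with the largest falls, the mitotic phosphatases Cdc25b (-0.96) and Cdc25c (-0.89) and the inhibitory kinase Pkmyt1 (-0.73), act on Cdk1.

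Other end joining genes fell in 5 of 12 cases, led by Polq (-0.57), Tdp1 (-0.56) and Lig3 (-0.39), which belong to alternative joining and end cleaning. In base excision repair 7 of 17 fell, led by the glycosylases Neil3 (-1.06) and Mutyh (-0.75), and Parp3 rose (0.59). In lesion bypass and fork protection 10 of 19 fell, led by the helicase Recql4 (-0.66) and the polymerase genes Rev3l (-0.54) and Polh (-0.51), and Polk and Recql5 rose (0.35 and 0.23). Recql5 was not called without control library 1 (adjusted p = 0.0933) or Nop16 siRNA library 2 (0.119). In nucleotide excision repair 6 of 20 rose and 3 fell, shares near those of all genes (23% and 22.4%), and the median was 0.01. Among the genes called, the largest changes were those of Ddb2 (-0.39), Gtf2h5 (0.28) and Ercc4 (0.23, adjusted p = 0.0274, and 0.0658 with DESeq2). Ercc4 was also not called without control library 1 (0.0765) or 2 (0.0555) or Nop16 siRNA library 3 (0.215).

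Genes of the cell cycle moved in the same libraries. Of 40 replication genes 34 fell (85%, beside 22.4% of all genes) and the median log2 fold change was -0.39. Of 30 mitosis genes 30 fell, and their median was -0.96. The medians of the 44 genes (-0.28) and of the other repair genes (-0.16) lay between these and that of all genes. The part of a changed cycle phase in the lower repair genes was not tested.

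**Figure D4:**
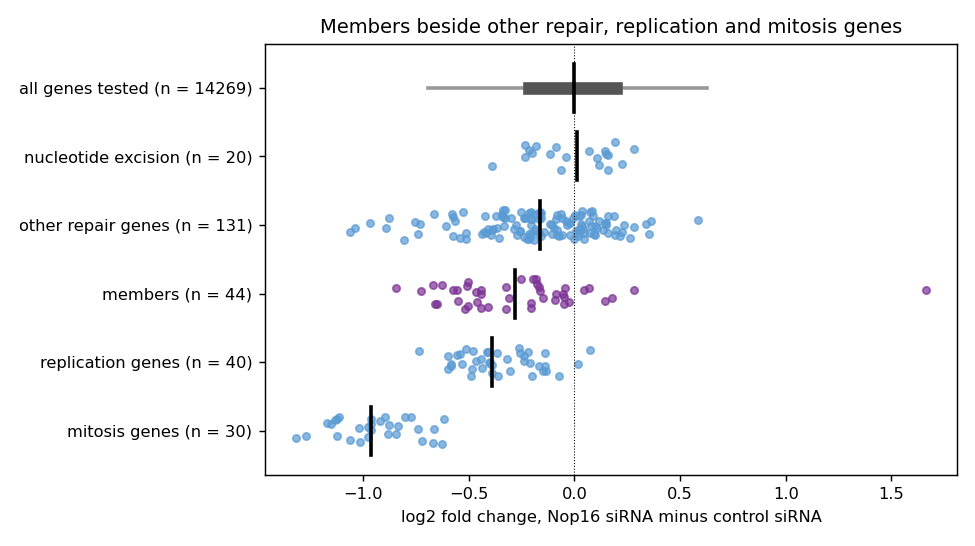
Log2 fold change (Nop16 siRNA minus control siRNA, x axis) of the 44 genes, of 131 other repair genes, of the 20 nucleotide excision genes among these, and of replication and mitosis genes; points are genes, black lines are medians, and for all 14269 genes tested the thick bar spans the middle 50% and the thin bar the middle 90%. The median is -0.28 for the 44 genes, -0.16 for other repair genes, -0.39 for replication genes and -0.96 for mitosis genes.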

How the data were processed

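Per the labels' protocols, poly(A) RNA went into a directional library kit. The authors deposited raw fragment counts for each gene, made with featureCounts 2.0.1 (strand setting 2, minimum overlap 10, multi-mapped and multi-overlapping fragments counted) on filtered Ensembl 101 models of GRCm38, per the file headers; paralogs and overlapping genes are thus uncertain. The submitters' processing notes also name Trim Galore and HISAT2 2.2.1. Symbols were found for 55141 of 55401 identifiers in GENCODE M21. Counts were filtered (filterByExpr), TMM scaled and tested with edgeR 4.0.16 (R 4.3.3, robust quasi-likelihood, Benjamini-Hochberg over 14269 genes). The steps were also run on simulated counts with far fewer changed genes than were called here, and that outcome is not reported here. SEs are the absolute log2 fold change divided by the square root of F; CPM uses TMM-scaled totals. Without molecular identifiers, intervals and floors cover counting error and replicate spread, not amplification. Alternatives were DESeq2 1.42.0, limma-voom 3.58.1, other scalings, filters and dispersion, equal depth, a length trend, a replicate block, a 1.2-fold minimum and leaving out each library. Library values are given for the leading called gene of each role, called genes moving against the majority, genes whose call changes, and partner pairs; up to 3 leading called genes are named from each other list. The 44 genes and all lists were chosen with earlier results of these data known. Some genes of the lists are not reported here.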

Additional observations from a re-analysis of the deposited data

How the results depend on the processing

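Of the 29 genes called, 25 kept call and direction in every one of 17 alternatives that tested them, the minimum fold not counted; Fancb, Rad50, Atm and Prkdc did not, and Atrip gained a call, as given above. Over the runs that left out 1 library, 24 to 27 genes were lower and 2 to 3 higher, and the median ran from -0.31 to -0.24. With DESeq2 24 were lower, and at equal depth 26 were lower and 2 higher. Of all genes, 3195 were lower in the main test, 2817 with DESeq2, 3039 at equal depth and 2899 to 3010 without 1 library. The median was -0.32 with a filter of at least 5 CPM in 3 libraries and -0.24 with the length trend removed. With a minimum fold of 1.2, 16 were lower and 1 higher, and 2361 of all genes were called. Of the other repair genes 7 were higher with DESeq2 and 6 to 9 without 1 library. Values of uncalled genes that changed sign were 0.0576 for Fancf and 0.00352 for Xrcc1 at equal depth and 0.00489 for Trp53bp1 with the length trend removed; Xrcc5 ran from -0.0935 to 0.00625 without 1 library. No scaling moved the median of all genes by more than 0.023. The replicate block gave 27 lower and 2 higher. Same-numbered libraries did not deviate together (correlations 0.0175, -0.0198 and -0.0223). The labels state no pairing, and such values cannot tell whether these libraries were prepared together. Of 35 called genes named outside the 44, 28 kept the call throughout.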
